A study of Rattus norvegicus with 4 samples.

Results

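The genes described here are the protein-coding splicing factors and heterogeneous nuclear ribonucleoproteins (hnRNPs) of rat embryonic stem cells (ESCs), measured by RNA-seq with and without an intact *Thop1* gene. They were chosen by symbol alone, as every protein-coding gene whose name begins with Srsf, Sf3a, Sf3b, Hnrnp, Snrp, U2af or Prpf (all but Hnrnp, Snrp and U2af followed directly by a digit). The rule found 69 of the 34773 genes of the count table, namely 12 Srsf, 13 Snrp, 9 Sf3a and Sf3b, 3 U2af, 13 Prpf and 19 Hnrnp genes. Of these, 66 passed the filter on low counts and were tested. The other 3 were *Snrpn*, with 3, 3 and 4 counts in the subclones and 0 in WT, *Srsf12*, with 2 counts in #1 and 0 in the rest, and *Srsf8*, with 0 counts in every library.

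Introns are removed from pre-mRNA by the spliceosome, which is built on each intron from small nuclear ribonucleoproteins (snRNPs), each an snRNA with its proteins. U1 snRNP binds the start of the intron, the U2AF heterodimer reads its end, and U2 snRNP with the SF3A and SF3B complexes then holds the branch point. The U4/U6 and U5 snRNPs with their Prpf proteins complete the catalytic core. SR proteins often promote and hnRNPs often oppose the use of particular exons, and several of these genes control their own mRNA through alternative exons that lead to decay.

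The WT library came from DA-5-3-GFP, a rat ESC line carrying a GFP reporter in *Rex1*. The 3 Thop1-KO libraries came from subclones #1, #2 and #3, made from that line with Cas9 and sgRNAs against *Thop1*, which encodes a cytosolic oligopeptidase. Each subclone is the progeny of 1 clone, and puromycin selection was used to obtain them. The study's methods describe culture on feeder cells in 2i/LIF medium (PD0325901, CHIR99021 and LIF), which all groups share. The paper calls DA-5-3 diploid, whereas the deposited description calls the sequenced cells haploid. No age or further treatment is given. Poly(A) RNA was sequenced, and counts on genes summed to between 15405499 (WT) and 17936544 (#3) per library. There is 1 library of WT, so the spread between replicates comes only from the 3 subclones, and the genotype cannot be told apart from any other difference between that 1 culture and the rest. An exact one-sided permutation of 1 library against 3 cannot give a p below 0.25, so each adjusted p rests on the variance model of the test.

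*Thop1* itself was at 109.9, 92.5 and 149 CPM (counts scaled to library size after TMM normalization) in #1, #2 and #3 and at 370.1 in WT, that is at 29.7%, 24.99% and 40.3% of WT. Its log2 fold change was -1.66 (SE 0.29, adjusted p = 0.0187, lower in 3 of 3 subclones). No pair of libraries agreed within sampling noise (chi-square per degree of freedom of at least 22.4). Of the 8 ES cell markers tested, 2 were called higher and 1 lower. *Esrrb* was at 330.1, 286 and 328 CPM and at 15.9 in WT (log2 fold change 4.30, adjusted p = 0.00678), *Tfcp2l1* had a log2 fold change of 2.89 (adjusted p = 0.00678) and *Dppa5* one of -1.02 (adjusted p = 0.0360, and 0.177 after a correction for gene length). *Pou5f1* was at 3889 to 4842 CPM, with WT among the subclones. The fibroblast marker list, which would include feeder cells, summed to 325, 654 and 418 CPM in the subclones and 199 in WT. All 6 of its tested genes were highest in #2 and lowest in WT, 1 of them, *Lox*, was called higher, and *Dcn* and *Thy1* were at 0 in every library. Primitive endoderm markers summed to 7.39, 5.94 and 5.01 CPM and 2.89 in WT, with 5 of 7 tested and 0 called by edgeR, limma or DESeq2 (3 at an unadjusted p under 0.05). Neural and mesoderm markers summed to 125, 292 and 221 CPM and 313 in WT, with *Nes* called lower and *Pax6* and *Mixl1* at 0. The part of these markers in the results below was not tested. In bulk RNA, fewer cells of a type and less RNA per cell cannot be told apart.

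The bases before the transcription start are shown for 6 members, to let the motif matches be read in place. They are those, of the 12 called members with a RefSeq window, that hold either of the motifs named here in these bases, and the other 6 hold neither. The sequences are RefSeq's (build GRCr8), 100 bases ending just before the start, read 5′ to 3′ on the gene's strand. Capitals mark the letters CCGGAAG (an ETS-type motif) or CCAAT (the CCAAT box) on either strand.
Snrpb2: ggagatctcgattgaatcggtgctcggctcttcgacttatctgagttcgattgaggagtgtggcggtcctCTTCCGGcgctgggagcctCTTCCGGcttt
Sf3a3: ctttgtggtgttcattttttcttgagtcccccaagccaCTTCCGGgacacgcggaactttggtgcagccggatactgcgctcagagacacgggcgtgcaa
Sf3a2: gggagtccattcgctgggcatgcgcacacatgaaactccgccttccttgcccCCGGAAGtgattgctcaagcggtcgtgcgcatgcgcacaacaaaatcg
Prpf38a: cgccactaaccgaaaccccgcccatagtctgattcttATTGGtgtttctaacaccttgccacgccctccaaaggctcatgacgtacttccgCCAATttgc
Prpf19: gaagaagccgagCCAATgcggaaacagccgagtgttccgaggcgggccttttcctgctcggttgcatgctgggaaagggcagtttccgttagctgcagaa
Hnrnpr: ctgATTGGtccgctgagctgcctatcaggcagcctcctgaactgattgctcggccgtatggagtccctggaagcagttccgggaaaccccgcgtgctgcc
These lie at chr3:150852734-150852833 (plus strand), chr5:142252307-142252406 (plus strand), chr7:9566206-9566305 (minus strand), chr5:128552866-128552965 (minus strand), chr1:216966407-216966506 (plus strand) and chr5:153826419-153826518 (plus strand) in that order. *Snrpb2* held the ETS letters 2 times in reverse orientation, *Sf3a3* held them once in reverse and *Sf3a2* once forward, while *Prpf38a* held 2 CCAAT boxes and *Prpf19* and *Hnrnpr* 1 each. The first 4 fell in the subclones and the last 2 rose.

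RefSeq windows of 250 bases before to 50 after the start were found for 64 of the 69 members, 68 windows in all. The ETS letters were in 29.4% of them (20 of 68), against 10.7% of the 21851 windows of protein-coding genes and 17.3% of the 10693 windows of genes tested here. CCAAT was in 57.4%, against 38.0% and 37.5%. GGGCGG (the GC box) was in 55.9% of the members' windows, between 41.8% of protein-coding windows and 62.3% of those of genes tested. TATAAA was in 11.8% (13.01% and 6.81%) and CACGTG (an E box) in 13.2% (7.02% and 9.35%). Both strands were searched, and none of these motifs contains another. The ETS letters were in 3 of the 9 windows of members that fell and in 1 of the 3 windows of members that rose, and CCAAT was in 3 of 9 and 3 of 3. These matches are descriptions of the letters in the windows.

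Most splicing genes had lower values in the Thop1-KO libraries than in the single WT library, and a smaller number had higher values. Of the 66 members tested, 9 fell and 4 rose at an adjusted p under 0.05 (edgeR quasi-likelihood test, Benjamini-Hochberg over all 15028 genes tested). Together they are 19.7% of the members, beside 13.8% of all genes tested. The members that fell make 13.6%, beside 5.17% of all genes, and those that rose make 6.06%, beside 8.62%. At an unadjusted p under 0.05 were 27 of the 66 members, beside 5110 of all 15028 genes tested. Counts of such p-values in the groups below are to be read beside that share. The median log2 fold change was -0.49 over the 66 members and 0.06 over all genes tested, and 46 members had a negative and 20 a positive value. WT lay above all 3 subclones in 42 members (63.6%, beside 37.6% of all genes) and below all 3 in 17 (25.8%, beside 38.1%). In the other 7 it lay among the subclones. The median stayed negative under the other scalings, from -0.58 (upper quartile) to -0.41 (library size only). WT was then above all subclones in 42 and 36 members, and in 28 when each FPKM (fragments per length and library size) was divided by its library's sum. No share of all genes was taken under these scalings, so these counts, here and in the groups below, have none beside them.

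The genes that fell were *Hnrnpm*, *Hnrnph1*, *Snrpb2*, *Snrpa*, *Sf3a2*, *Sf3a3*, *Sf3b4*, *U2af1l4* and *Prpf38a*, and those that rose were *U2af2*, *Hnrnpr*, *Hnrnpul2* and *Prpf19*. Coordinates are given below as in the deposited annotation, whose genome build is not named in the sources used here. Of the 13, 5 lie on chromosome 1 and 3 on chromosome 5, where members that were not called lie too. No share of the members or of all genes by chromosome was taken, so these counts do not show a grouping. Among members just past the threshold were *Prpf19* (adjusted p = 0.0496) and *Hnrnpr* (0.0485), and just short of it were *Hnrnpc* (0.0522) and *Prpf8* (0.0539). DESeq2's Wald test called 11 members lower (16.7%, beside 7.2% of all genes) and 6 higher (9.09%, beside 14.1%), including all 13 of the members called by edgeR.

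**Figure D1:**
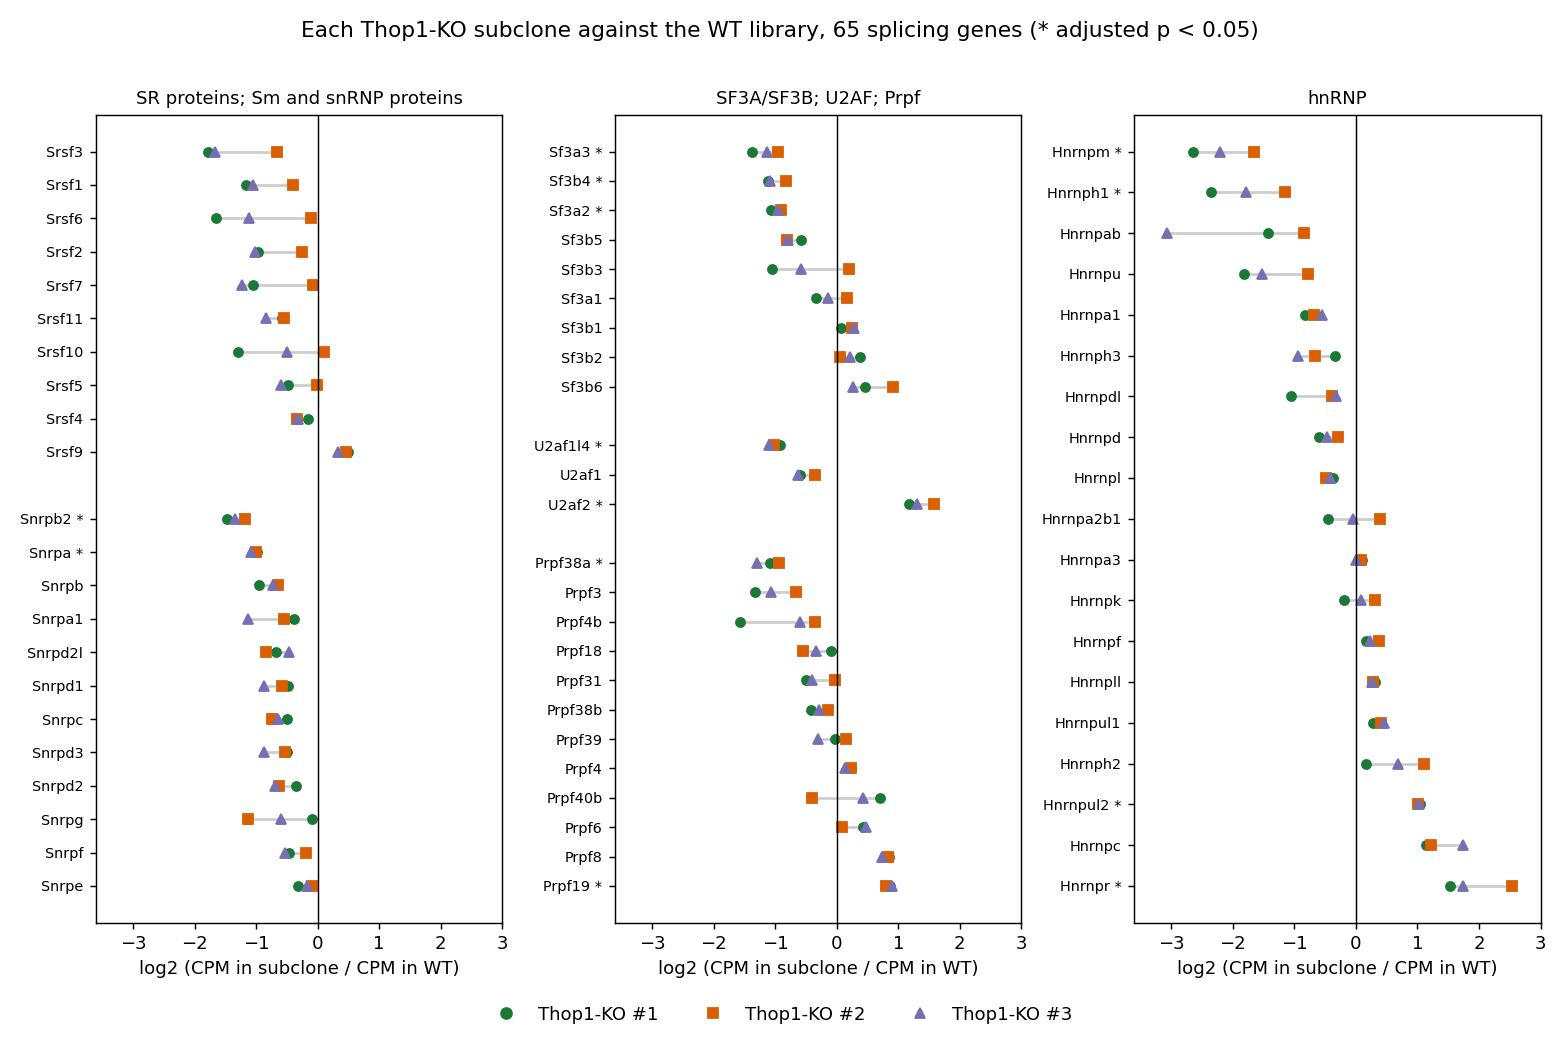
Each row is a tested member (1 of the 66 is not drawn) and each symbol a subclone, placed at the log2 ratio of its CPM to that of WT, with the black line at no difference and asterisks at an adjusted p under 0.05. The 12 tested Snrp genes sit left of the line in every subclone, while hnRNP genes reach from *Hnrnpab* in #3 on the far left to *Hnrnpr* in #2 on the far right.

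The calls depended on which subclones were in the fit. Without #2, 27 members were called lower (40.9%, beside 16.8% of all genes) and 6 higher (9.09%, beside 21.1%), and these include all 13 called with every subclone. Without #1, 4 were called lower (6.06%, beside 4.79%) and 3 higher (4.55%, beside 8.85%). Without #3, only *Hnrnpm* was called lower (1.52%, beside 0.698%) and 0 were called higher by edgeR (beside 2.4%). In that fit 20 members had an unadjusted p under 0.05 in either direction, and no count over all genes was taken to set beside it. The direction of all 13 was the same whichever subclone was left out. This could hardly be otherwise, because in each of the 13 the same WT library lay outside the range of all 3 subclones.

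All 12 tested Snrp genes, which encode the proteins of the snRNPs, had their highest value in WT, and their median log2 fold change was -0.63. At the threshold 2 of them fell (16.7%, beside 5.17% of all genes) and 0 rose by edgeR, limma or DESeq2. An unadjusted p under 0.05 was found for 7 of the 12, beside 5110 of all 15028 genes tested. With library size as the only scaling WT was highest in 11 of the 12, and as a share of summed FPKM in 9. *Snrpa* (ENSRNOG00000001501, chromosome 1, 83999671 to 84008293), the A protein of U1 snRNP that binds a stem-loop of U1 snRNA, was at 182, 181 and 169.7 CPM in #1, #2 and #3 and at 361 in WT. The 3 subclones were within a narrow range, well below WT. Its log2 fold change was -1.02 (SE 0.21, adjusted p = 0.0272, lower in 3 of 3 subclones). *Snrpb2* (ENSRNOG00000004967, chromosome 3, 137137980 to 137147575), the B'' protein of U2 snRNP that binds U2 snRNA, was at 25.7, 31.4 and 28.4 CPM and at 71.6 in WT. Its log2 fold change of -1.33 (SE 0.26, adjusted p = 0.0246) was the largest fall among the Snrp genes.

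Other proteins specific to these snRNPs were not called. *Snrpa1*, the A' protein that binds U2 snRNA together with B'', was at 172, 153 and 102 CPM against 223 in WT (adjusted p = 0.196). *Snrpc*, the C protein of U1, was at 194, 163 and 175 CPM against 274 (adjusted p = 0.103). Both had WT above every subclone. *Snrnp70*, a U1 protein that the naming rule does not reach, was at 426, 472 and 331 CPM against 284, so that WT lay below every subclone (log2 fold change 0.53, SE 0.27, adjusted p = 0.216).

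The 7 Sm core proteins form the ring that nearly every spliceosomal snRNA carries. WT was above all 3 subclones for all 7 genes, although for 6 of 7 with scaling by library size only and for 4 of 7 as a share of summed FPKM. Their log2 fold changes ran from -0.77 to -0.19 with a median of -0.55. After the length correction described below the median was -0.35, *Snrpb* was called lower and *Snrpe* had a positive value (0.32, from -0.19). In the main edgeR fit, limma and DESeq2 none passed the threshold, and 4 had an unadjusted p under 0.05 in the main fit. *Snrpb* was also called lower with upper quartile scaling. Without #2, *Snrpb*, *Snrpd1* and *Snrpd3* were called lower. *Snrpd2*, which had the highest FPKM of the Snrp genes, was at 443, 366 and 351 CPM and at 565 in WT (log2 fold change -0.55, adjusted p = 0.144). *Snrpb* came nearest to the threshold, at 311, 387 and 366 CPM and 604 in WT (adjusted p = 0.0636). Summed over the 7 genes, the deposited FPKM were 1143, 1108 and 983 in the subclones and 1611 in WT.

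Reads for *Snrpg* may be shared with another gene. *Snrpg* had 161, 83 and 122 counts in #1, #2 and #3 and 152 in WT. *LOC687679*, which the annotation calls similar to SNRPG and which lies outside the naming rule, had 3274, 3100 and 2695 counts and 4437 in WT. Its log2 fold change was -0.78 (SE 0.24, adjusted p = 0.0724), in the same direction as the other Sm genes. Reads shared between such copies may have been split or dropped, so neither value stands for the protein alone. The entries of *Snrpg*, *Snrpe* and *Snrpd2l* span no more bases than their exons (382, 418 and 357). *Snrpd2l*, which is among the 12 tested Snrp genes, had only 17, 16 and 21 counts in the subclones and 24 in WT. Whether reads of *Snrpe* or *Snrpd2l* were shared with other copies was not tested. Copies that the annotation likens to the C protein of U1 and to hnRNP A1, A3, C, K and R also had counts. Next after *LOC687679* by summed counts were *LOC685273* (likened to the C protein of U1), with 553 to 713 counts, *LOC100359916* (likened to hnRNP K), with 275, 493 and 407 counts in the subclones and 259 in WT, and *LOC100911576* (likened to hnRNP C), with 138, 858 and 193 counts in the subclones and 91 in WT.

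SF3A and SF3B join U2 snRNP and place the branch point in its pocket, and a subset of their subunits fell. Of the 9 genes tested, 3 fell (33.3%, beside 5.17% of all genes) and 0 rose by edgeR, limma or DESeq2, with 4 at an unadjusted p under 0.05. *Sf3a3* (ENSRNOG00000007629, chromosome 5, 142702685 to 142722341), a subunit of the SF3A heterotrimer, was at 49.1, 65.8 and 58.3 CPM and at 127 in WT (log2 fold change -1.14, SE 0.26, adjusted p = 0.0348). *Sf3a2* (ENSRNOG00000019349, chromosome 7, 11777826 to 11783849), a further subunit of that heterotrimer, was at 91.3, 101.5 and 98.1 CPM and at 191 in WT (log2 fold change -0.98, SE 0.22, adjusted p = 0.0350). For both, the 3 subclones lay close together and well below WT.

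*Sf3a1*, the third subunit of SF3A, was at 134, 188 and 152 CPM and at 168 in WT, so that WT lay within the subclones (log2 fold change -0.09, SE 0.27, and 0.02 without #1). Subclone #2 was the highest library and #1 the lowest. A gene on the other strand, *Ccdc157*, overlaps 240 bases of the *Sf3a1* locus and had at most 64 counts.

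Among the SF3B genes, *Sf3b4* (ENSRNOG00000021181, chromosome 2, 198312428 to 198317180), an RNA-binding subunit that contacts the pre-mRNA upstream of the branch point, was at 157, 190.3 and 159.8 CPM and at 339 in WT. Its log2 fold change was -1.004 (SE 0.23, adjusted p = 0.0348, lower in 3 of 3 subclones). *Sf3b5*, a small subunit with the highest FPKM of the Sf3 genes, was at 168, 143 and 146 CPM and at 252 in WT (log2 fold change -0.73, adjusted p = 0.0755). The log2 fold changes of the largest subunits were positive, at 0.20 for *Sf3b1* and 0.22 for *Sf3b2*, but negative after the length correction described below (-0.20 and -0.11). *Sf3b1*, the branch point-binding subunit, was at 184, 209 and 213 CPM and at 176 in WT, and *Sf3b2* at 495, 393 and 438 CPM and at 379 in WT. Neither passed the test (adjusted p = 0.563 and 0.530). *Sf3b3*, at 146, 347 and 201 CPM and 302 in WT, and *Sf3b6*, at 20.9, 28.8 and 18.4 CPM and 15.3 in WT, were not called either. *Phf5a*, the SF3B subunit that the naming rule does not reach, was at 172, 189 and 152 CPM and at 330.1 in WT. It fell (log2 fold change -0.95, SE 0.23, adjusted p = 0.0398, and 0.0869 after the length correction).

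Of the U2AF genes, 1 rose and 1 fell (66.7% of only 3 genes, beside 13.8% of all genes tested). *U2af2* (ENSRNOG00000015914, chromosome 1, 72312727 to 72329856), the large subunit that binds the polypyrimidine tract, was at 351, 468 and 386 CPM in #1, #2 and #3 and at 156 in WT. Every subclone was above WT, and the log2 fold change was 1.36 (SE 0.27, adjusted p = 0.0263). *U2af1*, the small subunit that reads the AG at the end of the intron, was at 187, 221 and 183 CPM and at 284 in WT (log2 fold change -0.53, SE 0.23, adjusted p = 0.158). *U2af1l4* (ENSRNOG00000024497, chromosome 1, 89017479 to 89019937), a paralog of the small subunit, was at 44.9, 42.2 and 39.7 CPM and at 85.3 in WT, and fell (log2 fold change -1.01, SE 0.24, adjusted p = 0.0395). The summed FPKM of the 3 genes was 437, 536 and 440 in the subclones and 455 in WT, so the sum of WT lay among the subclones.

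**Figure D2:**
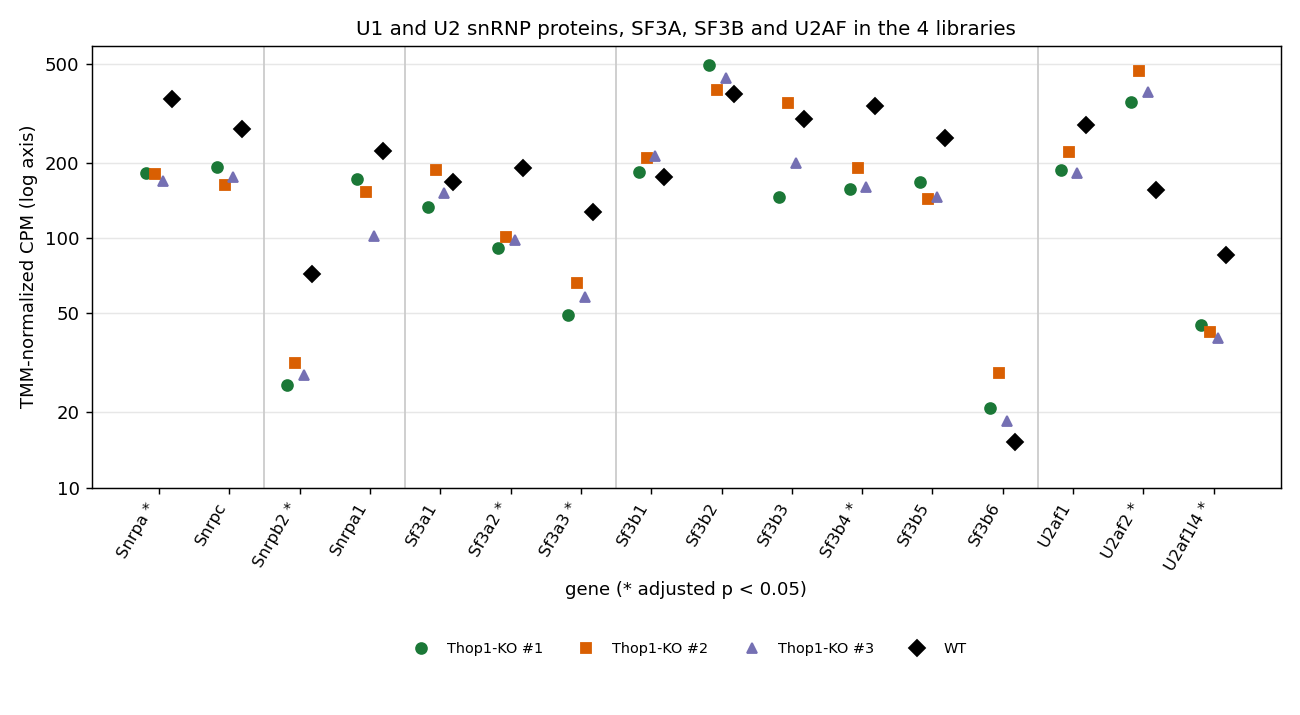
TMM-normalized CPM on a log axis for U1 and U2 snRNP proteins, SF3A, SF3B and U2AF, with 1 symbol per library, grey lines between complexes and asterisks at an adjusted p under 0.05. The WT diamonds stand above all subclones for the U1 and U2 proteins, *Sf3a2*, *Sf3a3*, *Sf3b4*, *Sf3b5*, *U2af1* and *U2af1l4*, and below them for *Sf3b1*, *Sf3b2*, *Sf3b6* and *U2af2*.

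The Prpf genes, named after yeast pre-mRNA processing mutants, had few calls, in both directions. Of 13 tested, 1 rose and 1 fell (15.4% called, near the 13.8% of all genes). The median log2 fold change was -0.28 (-0.60 after the length correction). *Prpf19* (ENSRNOG00000020897, chromosome 1, 226947105 to 226958144), the ubiquitin ligase that leads the Prpf19 complex and had the highest FPKM of the Prpf genes, was at 389, 376 and 398 CPM and at 215 in WT (log2 fold change 0.85, SE 0.22, adjusted p = 0.0496). The subclones differed from each other by a factor of 1.06 at most. *Prpf38a* (ENSRNOG00000009451, chromosome 5, 128174835 to 128186532), a protein of the precatalytic spliceosome, was at 35.8, 39.4 and 30.9 CPM and at 75.6 in WT (log2 fold change -1.10, SE 0.26, adjusted p = 0.0398).

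The 5 Prpf proteins of U5 and U4/U6 gave no call in the main edgeR fit or by limma, 1 by DESeq2 and 2 unadjusted p-values under 0.05. Among the alternative edgeR fits, *Prpf8* was called higher with library size only and without #2. *Prpf3* was called lower without #2 and after the length correction. *Prpf8*, the large U5 protein at the heart of the active site, was at 556, 550.5 and 519 CPM and at 310.01 in WT (log2 fold change 0.81, SE 0.22, adjusted p = 0.0539). *Prpf3*, of the U4/U6 snRNP, was at 24.8, 39.3 and 29.6 CPM and at 62.4 in WT (log2 fold change -0.997, SE 0.32, adjusted p = 0.0803). *Prpf4* and *Prpf6* were slightly above WT in every subclone and *Prpf31* slightly below, with adjusted p of 0.402 or more, and the log2 fold change of *Prpf4* was -0.12 after the length correction.

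SR proteins carry RNA recognition motifs and an arginine- and serine-rich tail, and they recruit U1 snRNP and U2AF to exons. Of the 10 tested genes, 0 passed the threshold in the main edgeR fit or by limma and 1, *Srsf3*, by DESeq2. WT was above all 3 subclones in 8 and the median log2 fold change was -0.67. An unadjusted p under 0.05 was found for 3 of the 10, beside 5110 of all 15028 genes tested. The subclones differed widely in this group. Subclone #2 was the highest of the 3 for 8 of the 10 genes, and for 38 of all 66 members (57.6%), beside 39.5% of all genes tested. The fibroblast marker sum was also highest in #2 (654 CPM), but it was lowest in WT (199 CPM), and its part in the SR values was not tested. With library size as the only scaling WT was above all subclones in 5 of the 10 genes, and as a share of summed FPKM in 3.

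*Srsf2*, which had the highest FPKM of the group, was at 303 CPM in #1, 498 in #2 and 293 in #3, and at 592 in WT (log2 fold change -0.70, SE 0.33, adjusted p = 0.186). Subclone #2 was nearer to WT than to the other subclones. *Srsf6* was at 63.1, 183 and 91.0 CPM and at 198 in WT (log2 fold change -0.82, SE 0.52, adjusted p = 0.304), and *Srsf10* at 10.7, 28.5 and 18.6 CPM and at 26.4 in WT (log2 fold change -0.45, SE 0.51, adjusted p = 0.554). These were, with *Hnrnpab*, the members whose highest subclone exceeded the lowest by the largest factor.

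*Srsf3*, the smallest SR protein, had the largest difference of the group, at 183, 399.7 and 199.5 CPM and at 632 in WT (log2 fold change -1.28, SE 0.42, adjusted p = 0.0883). *Srsf1*, known for its part in exon definition, was at 116, 197 and 125 CPM and at 259 in WT. *Srsf7* was at 109.7, 216 and 97.4 CPM and at 228 in WT. In each, #2 lay nearest to WT. In 2 genes of the group #1 was the highest subclone. *Srsf4* was at 128, 114 and 115 CPM and at 143 in WT, and *Srsf9* at 83.6, 81.5 and 74.5 CPM and at 59.1 in WT. Without #2, *Srsf1*, *Srsf2*, *Srsf3*, *Srsf6*, *Srsf7* and *Srsf11* were called lower.

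**Figure D3:**
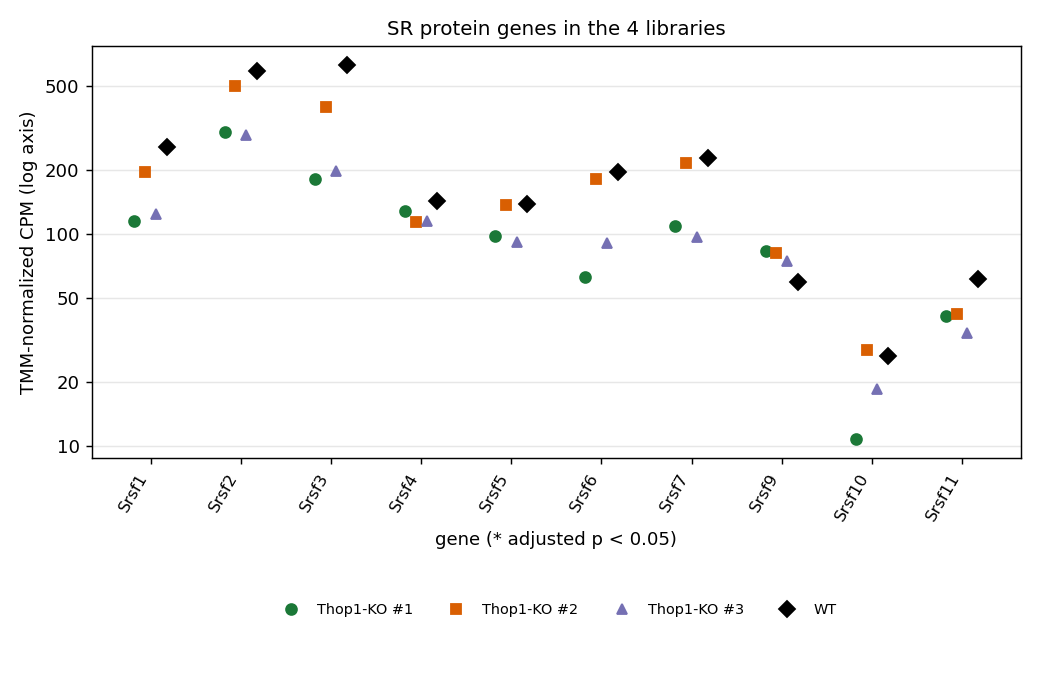
TMM-normalized CPM on a log axis for the 10 tested SR protein genes, with 1 symbol per library. In *Srsf1*, *Srsf2*, *Srsf3*, *Srsf5*, *Srsf6* and *Srsf7* the orange square of subclone #2 lies between the other subclones and the black WT diamond, and no gene passed the threshold of an adjusted p of 0.05.

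The hnRNPs, abundant proteins that coat nascent transcripts, had the widest range in both directions. Of 19 tested, 2 fell, 2 rose and 15 did not pass (21.1% called, beside 13.8% of all genes). Their median log2 fold change was 0.00, which changed sign with the scaling (-0.08 with upper quartile, 0.09 with library size only). After the length correction the median was -0.25, with 4 called lower and 0 higher by edgeR. WT was above all subclones in 9 and below all in 8. *Hnrnpm* (ENSRNOG00000007921, chromosome 7, 18516512 to 18554227), which binds GU-rich sequence and regulates alternative exons, was at 60.9, 120.2 and 82.6 CPM in #1, #2 and #3 and at 380.1 in WT. Its log2 fold change of -2.11 (SE 0.35, adjusted p = 0.0161) was the largest fall of any member, and ranged from -2.40 to -1.89 when 1 subclone was dropped. It was called in all 11 alternative analyses.

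*Hnrnph1* (ENSRNOG00000003399, chromosome 10, 35870232 to 35879910), which binds G-rich tracts, was at 24.8, 57.2 and 36.7 CPM and at 126 in WT (log2 fold change -1.67, SE 0.41, adjusted p = 0.0440). Its paralogs had values on both sides of WT. *Hnrnph2* was at 32.4, 62.4 and 46.4 CPM and at 28.9 in WT (adjusted p = 0.262). *Hnrnpf* was at 541, 629.95 and 571 CPM and at 485 in WT (log2 fold change 0.26, adjusted p = 0.424, and -0.03 after the length correction). Both had WT below every subclone, while *Hnrnph3*, at 10.02, 8.03 and 6.57 CPM and 12.7 in WT, had it above (adjusted p = 0.279). Whether reads of these related genes were separated fully was not tested.

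*Hnrnpr* (ENSRNOG00000011910, chromosome 5, 154668179 to 154699966) rose, from 7.33 CPM in WT to 21.2, 42.7 and 24.4 in the subclones (log2 fold change 2.004, SE 0.52, adjusted p = 0.0485). A pseudogene likened to it, *LOC102551606*, had 92 to 106 counts in the subclones and 165 in WT. *Hnrnpul2* (ENSRNOG00000019507, chromosome 1, 225015616 to 225027710), a relative of hnRNP U, was at 192, 189 and 192 CPM and at 93.7 in WT (log2 fold change 1.03, SE 0.24, adjusted p = 0.0365). Its 3 subclones differed by a factor of 1.02, the closest agreement among the members called. *Hnrnpu* itself, a scaffold protein of nuclear RNA and chromatin, was at 144, 297 and 176 CPM and at 507 in WT, the opposite direction (log2 fold change -1.30, SE 0.38, adjusted p = 0.0657).

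*Hnrnpc*, which binds uridine tracts, was at 34.0, 35.9 and 51.4 CPM and at 15.4 in WT (log2 fold change 1.39, SE 0.37, adjusted p = 0.0522). The level of *LOC100911576*, its copy in the annotation, was highest in #2. *Hnrnpab* was at 50.6, 76.1 and 16.3 CPM and at 137 in WT (log2 fold change -1.52, SE 0.66, adjusted p = 0.157), and its subclones differed by a factor of 4.67, the widest of all members. *Hnrnpa1*, which had the highest FPKM of the hnRNPs, was at 679, 755 and 824 CPM and at 1207 in WT (log2 fold change -0.68, SE 0.21, adjusted p = 0.0711). Its relatives *Hnrnpa3* (log2 fold change 0.07, SE 0.21) and *Hnrnpa2b1* (0.00, SE 0.34) lay near the WT value, and both turned negative with upper quartile scaling (-0.03 and -0.08).

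Per-length levels, which can be compared between genes, are given by group. The deposited FPKM of all 69 members summed to 5899, 6692 and 5741 in #1, #2 and #3 and to 8155 in WT. The Snrp sum was 1535 ± 127 (SD, n = 3) in the subclones and 2421 in WT, and the Sf3 sum 717 ± 41.2 (SD, n = 3) and 1021. The Srsf sum was 577, 905 and 547 in the subclones and 1023 in WT. The Prpf sum was higher in the subclones, at 433 ± 4.71 (SD, n = 3) against 361, and the Hnrnp sum was lower, at 2279 ± 201 (SD, n = 3) against 2874.

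The FPKM of all genes summed to 641066 to 721728 in the subclones and 826274 in WT, so WT holds more FPKM in all. As a share of that total, the members made up 0.817%, 1.04% and 0.869% in #1, #2 and #3 and 0.987% in WT. On this scale #2 lay above WT and the other subclones below it. The Snrp genes made up 0.228%, 0.244% and 0.211% in the subclones and 0.293% in WT, so they kept WT above every subclone, while the Hnrnp share of WT (0.348%) lay among the subclones (0.290% to 0.389%).

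**Figure D4:**
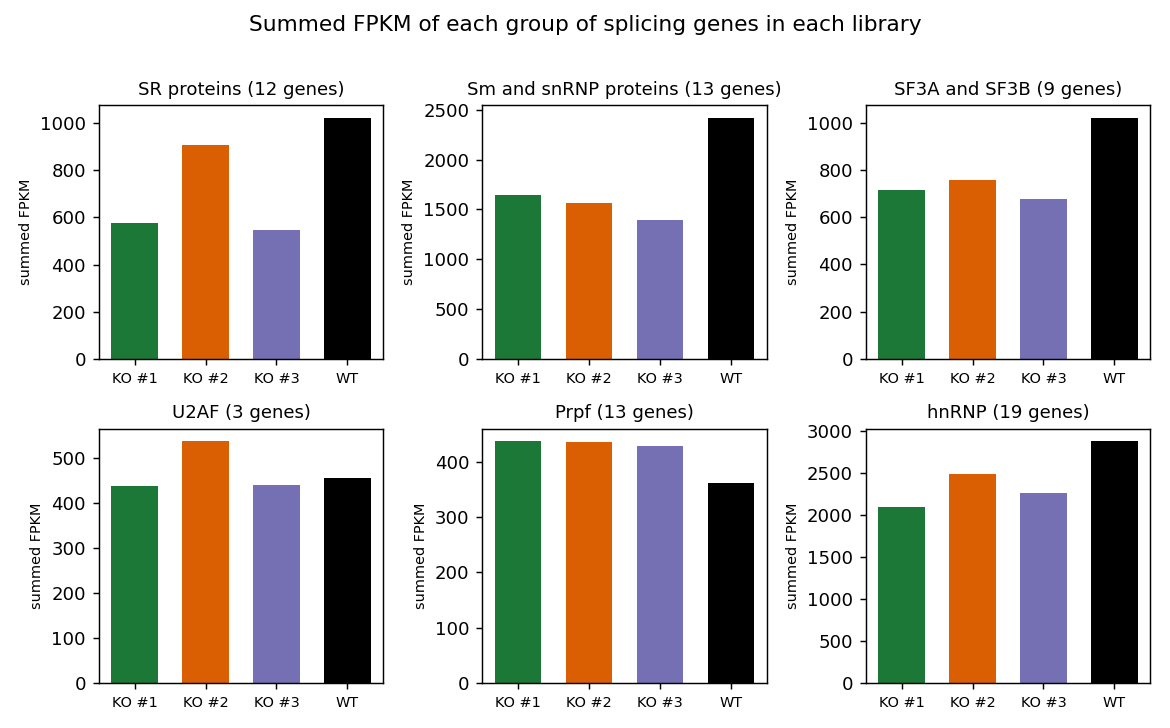
Bars give the summed FPKM of each group in each library, on axes that start at 0 and differ between panels. The Snrp and Sf3 bars of WT stand above all 3 subclones, the Srsf bar of #2 comes near that of WT, and the Prpf bar of WT is the lowest of its panel.

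Gene length moved with the fold change in these libraries. Over all 15028 genes tested, Spearman's rho between exon length and log2 fold change was 0.198, and over the 66 members it was 0.078 (descriptions across genes that share 4 libraries). When all genes were cut into 10 bins of equal size by length, the shortest bin had a median log2 fold change of -0.57 and the longest 0.43. The tested Snrp genes are short (median 980 bases of exon, against 2096 for all genes tested), whereas Srsf (2053) and Hnrnp genes (2190) are near the middle. After each library was corrected for length by loess, 14 members were called lower (21.2%, beside 6.81% of all genes) and 1, *U2af2*, higher (1.52%, beside 7.02%). The members' median was then -0.52 and that of all genes -0.11. Spearman's rho with exon length was then 0.010 over all genes tested but -0.250 over the 66 members. Among the members, longer genes thus tended to have the lower values after the correction, and the calls below are to be read with that. Of the 9 members that fell, 8 were also called lower after the correction, all but *U2af1l4* (adjusted p = 0.0521). *Hnrnpul2*, *Hnrnpr* and *Prpf19* were not called (adjusted p = 0.100, 0.0664 and 0.1296). The correction brought in *Hnrnpu*, *Srsf3*, *Hnrnpa1*, *Prpf3*, *Srsf1* and *Snrpb* as lower.

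**Figure D5:**
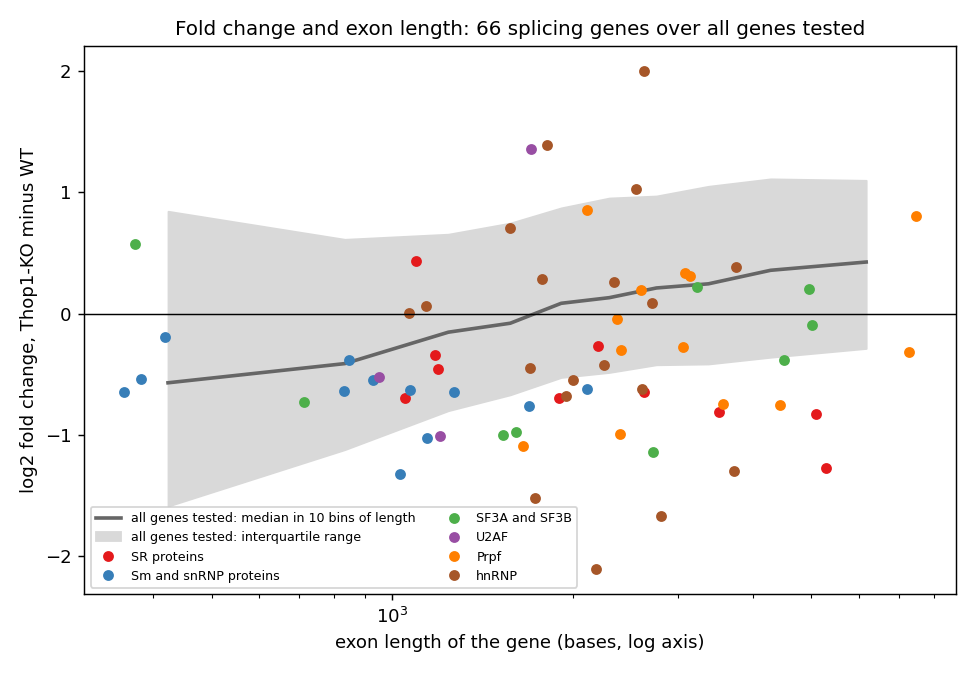
Each dot is a tested member at its exon length (log axis) and log2 fold change, coloured by group, and the grey line and band give the median and the interquartile range of all genes tested in 10 bins of length. The line rises from -0.57 in the shortest bin to 0.43 in the longest, and the SR protein dots beyond 3000 bases lie below the lower edge of the band.

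Genes of the spliceosome outside the naming rule were taken from a list of 127 names. Of these, 122 were found, as 124 entries of the table since *Lsm5* and *Crnkl1* each have a further one, and 121 entries were tested. Of these, 15 fell and 6 rose (17.4%, beside the 13.8% of all genes given above), and the median log2 fold change was -0.21 (-0.42 after the length correction). After that correction 15 were called lower and 4 higher, with some calls lost and others gained. Of the 7 tested genes of the LSm ring, the relative of the Sm ring on U6 snRNA, 2 fell, *Lsm3* and *Lsm5* (28.6%, beside 5.17% of all genes). WT was above all subclones for all 7 (6 as a share of summed FPKM), and their median was -0.99. These genes are short (median 797 bases), and after the length correction their median was -0.66, *Lsm5* was called (adjusted p = 0.0449), *Lsm3* was not (adjusted p = 0.0605) and *Lsm6* was (adjusted p = 0.0411). *Lsm5* was at 29.5, 31.6 and 20.8 CPM and at 85.0 in WT (log2 fold change -1.64, SE 0.30, adjusted p = 0.0208). *Ppih*, a cyclophilin bound to U4/U6, was at 11.4, 17.2 and 12.4 CPM and at 58.8 in WT (log2 fold change -2.10, SE 0.32, adjusted p = 0.0128).

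Among the 25 further snRNP proteins, 4 fell (*Ppih*, *Htatsf1*, *Phf5a* and *Txnl4a*) and 1 rose (20% called, beside 13.8% of all genes). After the length correction *Ppih* and *Htatsf1* were still called, and *Phf5a* and *Txnl4a* were not (adjusted p = 0.0869 and 0.0880). The gene that rose was *Eftud2*, the GTPase of U5 snRNP, at 245, 307 and 258 CPM and at 107 in WT (log2 fold change 1.33, SE 0.26, adjusted p = 0.0256, and 0.0582 after the length correction). *Htatsf1*, which associates with U2 snRNP, fell with a log2 fold change of -1.43 (SE 0.26, adjusted p = 0.0210). Of 20 proteins of the Prpf19 complex and the catalytic stages (21 entries), 2 fell, *Cwc27* and *Cwc22* (the latter with a log2 fold change -2.11, SE 0.34, adjusted p = 0.0158), and of 10 helicases *Ddx39b* fell. The shares called in these sets were 9.52% and 10%, beside 13.8% of all genes. Of the 11 tested genes that assemble or methylate Sm proteins, *Coil*, the scaffold of Cajal bodies, rose (1.84, SE 0.38, adjusted p = 0.0283). *Strap*, of the SMN complex, was at 94.4, 92.4 and 92.8 CPM and at 221 in WT and fell (-1.24, SE 0.21, adjusted p = 0.0178). *Smn1*, the core of that complex, fell as well. The share called in this set of 11 was 27.3%, beside 13.8% of all genes.

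Of 29 other regulators of alternative splicing tested, 4 rose and 3 fell (24.1% called, beside 13.8% of all genes). *Celf1*, *Khsrp*, *Ptbp3* and *Rbfox2* rose, with log2 fold changes of 1.77, 1.39, 1.53 and 1.58 (adjusted p = 0.0181, 0.0224, 0.0309 and 0.0362). After the length correction *Rbfox2* was not called (adjusted p = 0.0589), while *Celf1*, *Khsrp* and *Ptbp3* were. Those that fell were *Taf15*, *Elavl1* and *Rbm39*. *Taf15*, an RNA-binding protein, fell to 2.98, 5.37 and 3.95 CPM from 18.6 in WT (log2 fold change -2.18, SE 0.40, adjusted p = 0.0214). Of 13 SR-related proteins and SR kinases, 0 passed in the main edgeR fit or by limma or DESeq2, and 3 had an unadjusted p under 0.05. Of 5 exon junction complex genes, *Magoh* fell (20% called, beside 13.8% of all genes), but it was not called after the length correction (adjusted p = 0.111).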

How the data were processed

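Poly(A) RNA of 1 WT and 3 Thop1-KO cultures was sequenced by the authors from libraries made with a NEBNext Ultra kit. The authors cleaned the reads of adaptors and noise (FASTX toolkit) before they deposited raw counts per gene, and the submitters' processing notes name HISAT2 2.0.5 and featureCounts 1.5.0-p3. The authors also deposited FPKM values made from those counts. The genome build and whether strand was used in counting are not given in the sources used here, so genes that overlap or have close copies are uncertain (11 members overlap a gene with counts, and among members that were called such genes had at most 10). Reads in both genes of an overlap may have been dropped, so low counts of the other gene do not show that few were lost. On the other strand, *LOC103690164* overlaps 5125 bases of *Hnrnpab* and *LOC100910755* overlaps 26847 bases of *Hnrnph3*.

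Counts were tested with edgeR 4.0.16 in R 4.3.3 (filterByExpr with a minimum count of 10, TMM, quasi-likelihood test of Thop1-KO against WT, two-sided, Benjamini-Hochberg over the 15028 genes tested, threshold 0.05), and every adjusted p in the text is edgeR's unless another tool is named. Totals of 15405499 to 17936544 counts set the counting precision. The labels do not say whether the cultures were grown separately, so p-values measure the spread between these samples. Alternatives were other scalings (DESeq2 size factors, upper quartile, library size only), DESeq2 1.42.0, limma 3.58.1 on log2(FPKM + 1), no filter, at least 10 counts in every library, a loess correction for length (span 0.3) and leaving out each subclone. The place of WT under other scalings was an alternative chosen after seeing the data.

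The members and lists (other spliceosome genes, ES cell, fibroblast, primitive endoderm, and neural and mesoderm markers) were chosen with earlier results of these data known. Genes named are the members past the threshold, the member with the highest FPKM in each group, the 3 largest changes short of the threshold, the 3 widest subclone ratios, members not tested, all U2af genes, up to 6 other spliceosome genes in each direction with the smallest p, and *Thop1*. Division into complexes and all further genes named with values were chosen after their values were seen. Values of 1 tested member are not reported here, although it is in the counts.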

Additional observations from a re-analysis of the deposited data

How the results depend on the processing

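The median log2 fold change of the members was negative in every analysis run, from -0.58 with upper quartile scaling to -0.41 with library size only, while the median of all genes tested was 0.06 with TMM, -0.04 with upper quartile, 0.13 with library size and -0.11 after the length correction. Members called higher numbered 4 with TMM, 2 with upper quartile scaling and 1 after the length correction, and members called lower numbered 9 and, after the length correction, 14. DESeq2 called 1984 of all genes higher, against 1295. With 1 subclone left out, the ranges were 0 to 6 members higher and 1 to 27 lower, 354 to 3096 of all genes higher and 103 to 2476 lower, and 0 to 13 other spliceosome genes higher and 0 to 39 lower. In each range the lowest value came without #3 and the highest without #2. The 0 values are edgeR's. Without #3 the other spliceosome list held 30 genes at an unadjusted p under 0.05, and no count over all genes was taken to set beside it. A fit without 1 subclone has fewer samples, and beyond that the cause was not tested. Over the genes named with values and these alternatives, 805 log2 fold changes kept their sign and their side of the threshold, 75 lost the call, 39 gained it and 14 changed sign, none of them in a called gene. After the length correction these were *Hnrnpf* (-0.035), *Sf3b1* (-0.20), *Sf3b2* (-0.11), *Prpf4* (-0.12), *LOC685273* (0.15) and *Snrpe* (0.32). *Hnrnpa2b1* changed with DESeq2 size factors (-0.0086), upper quartile (-0.083), at least 10 counts in every library (-0.00215) and limma (-0.038), and *Hnrnpa3* with upper quartile (-0.033). With 1 subclone left out, *Hnrnpa2b1* ranged from -0.23 to 0.20, *Sf3a1* from -0.24 to 0.025 and *Pou5f1* from -0.14 to 0.0054. No paired analysis was possible because WT has 1 library. Counts of 4 or fewer, as for *Snrpn*, do not allow a difference to be seen at this depth. *Snurf*, which overlaps 22131 bases of *Snrpn* on the same strand, had 0, 1 and 0 counts in #1, #2 and #3 and 3 in WT. Reads in both genes may have been dropped, so these counts may not stand for the level of *Snrpn*.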
